A study of Capra hircus with 4 samples.

Results

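The inhibitor of DNA binding genes ID1, ID2, ID3 and ID4 and the SMAD genes SMAD1, SMAD3, SMAD5, SMAD6, SMAD7 and SMAD9 were followed in cultured goat hair follicle stem cells. These 10 genes were taken by symbol from the 20326 genes of the deposited tables, and all 10 were found. The cells came from the secondary follicles of cashmere goat (Capra hircus), which grow the fine undercoat, and were isolated from back skin and cultured. Mid anagen cells were taken in October and early anagen cells in April, anagen being the growth phase of the hair cycle. Each phase has 1 female and 1 male library, so there are 2 libraries per phase and 4 in all, and no treatment or genetic change is given for any of them. The animals' ages, the time in culture and whether a library pools animals are not stated in the sources used here, so a difference between phases is also a difference between seasons and between the cultures taken then.

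As background, bone morphogenetic proteins (BMPs) and transforming growth factor beta (TGF-beta) bind paired serine-threonine kinase receptors that phosphorylate receptor-regulated SMAD proteins. SMAD1, SMAD5 and SMAD9 carry the BMP signal and SMAD3 the TGF-beta and activin signal into the nucleus together with SMAD4, while SMAD6 and SMAD7 are inhibitory SMADs that are themselves induced by the pathway. The ID genes are direct targets of BMP-activated SMADs in many cell types. Their proteins lack a DNA-binding region and pair with E proteins such as TCF3, TCF4 and TCF12, which keeps those factors off DNA. In mouse follicles BMP signalling holds stem cells at rest, and its relief goes with the start of anagen.

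Values are the deposited abundances per gene. Their unit is not named, and they are read here as corrected for transcript length, since they appear to be rescaled TPM. Levels, shares and ratios of different genes within a library rest on that reading. Library totals ran from 844960 to 1186966, and 12040 to 12458 genes reached a value of 1. The numbers of reads are unknown, so no counting error can be given. The correlation of libraries over the log2 values of 12486 tested genes (Pearson's r) was 0.972 within mid anagen, 0.984 within early anagen and 0.942 to 0.966 across phases. The labelled cell type was checked on its markers. All 10 basal keratinocyte genes were at or above 1 in every library, and their sum was 20008 and 21033 at mid anagen, against 39824 and 44707 at early anagen. Of these 10 genes, 3 were lower and 1 was higher at mid anagen without overlap, so the sum does not stand for each gene. Of 10 bulge stem cell markers 9 were found, with sums of 283 and 312 at mid anagen and 166 and 128 at early anagen. CD34, a bulge marker in mouse, was under 1 throughout, and no row carries the symbol KRT15. The 8 endothelial genes were each under 1 in every library. Of 8 smooth muscle and pericyte genes 6 were at or above 1 in every library. Their sum was 287 and 596 at mid anagen, against 246 and 505 at early anagen. Adipocyte and sebocyte genes summed to 506 and 536, against 788 and 622. Schwann cell genes summed to 55.2 and 61.3, against 31.3 and 25.6, and melanocyte genes to 6.58 and 7.23, against 5.80 and 7.07. Of 6 Schwann cell genes 4 were under 1 in every library, as were 5 of 7 melanocyte genes, so each sum rests mainly on 2 genes. Of 7 immune genes 6 were found, and their sum was 18.2 and 11.9 at mid anagen, against 8.47 and 6.72 at early anagen. Among them 2 were at or above 1 in every library, while 4 were under 1 throughout, including the leukocyte gene PTPRC at 0. The 12 dermal fibroblast genes were all higher at mid anagen, with a sum of 185 in the female and 60.9 in the male library, against 4.32 and 5.98 at early anagen. None of the fibroblast genes was at 0 in all libraries. In bulk cultures a larger number of cells of a type cannot be told apart from more RNA per cell.

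ID3, ID1 and ID2 held the highest levels among the 10 genes, in that order, in each of the 4 libraries. ID3 lay between 354 and 432 and at percentile 98.4 of all genes by mean level. ID1 lay between 168 and 280, so that the lowest ID3 value was above the highest ID1 value. ID2 followed at 29.2 to 68.5. SMAD3, SMAD7, SMAD1 and SMAD5 formed the next tier, with every value between 17.7 and 33.6. Within this tier SMAD3 was above SMAD5 in each library, and its lowest value of 25.04 was above the highest SMAD5 value of 24.1. The ranges of the other pairs in the tier overlapped, and the places of SMAD7 and SMAD1 changed from library to library. SMAD9, ID4 and SMAD6 were the lowest 3 in each library, with SMAD9 at 4.27 to 8.97 and SMAD6 at 0.570 to 3.56.

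**Figure D1:**
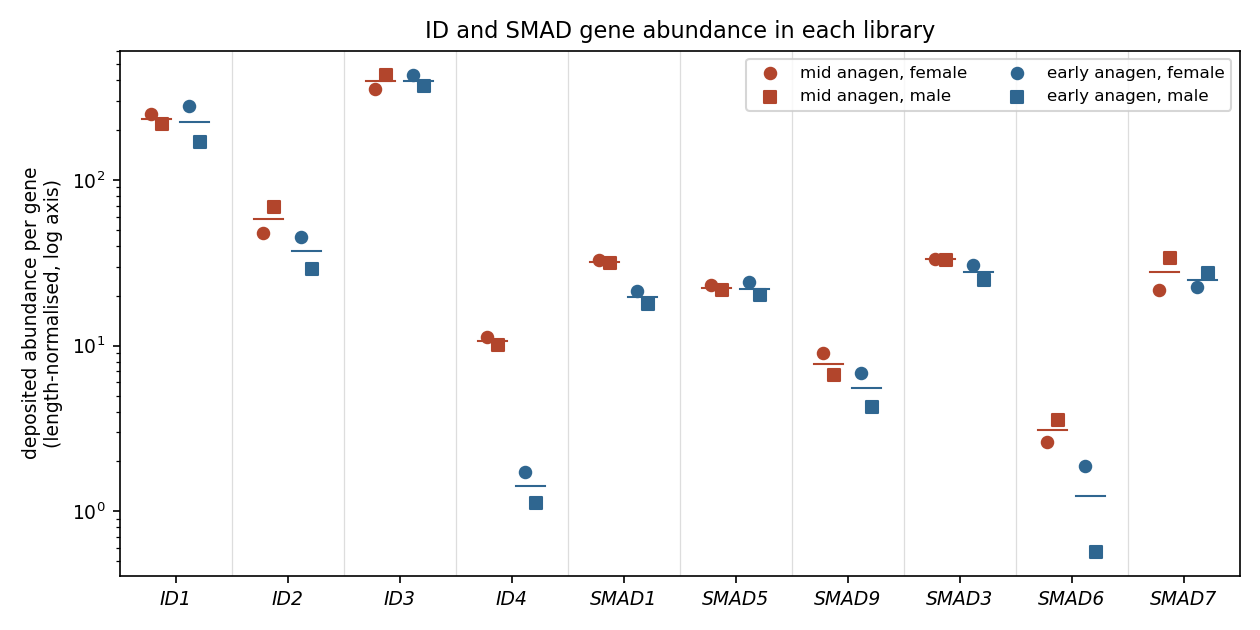
Deposited abundance per gene (log axis) of the 4 ID and 6 SMAD genes, with mid anagen left of early anagen within each gene, circles for female and squares for male libraries, and a line at the mean of the 2 libraries. ID4 is the gene whose phases lie furthest apart, at 11.3 and 10.03 in mid anagen against 1.72 and 1.12 in early anagen, while ID3 and SMAD5 overlap.

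The comparison of mid with early anagen asks how these genes differ between the phases of cashmere growth. ID4 was the single gene of the 10 that passed the test, and it was higher at mid anagen. ID4 (GeneID 108633532) was at 11.3 in the female and 10.03 in the male mid anagen library, against 1.72 in the female and 1.12 in the male early anagen library. The phases did not overlap, and the lower mid anagen value was several times the higher early anagen value. The means were 10.7 ± 0.88 at mid anagen and 1.42 ± 0.43 at early anagen (SD, n = 2 each), a ratio of 7.50. On the log2(value + 1) scale, which understates the change of a gene this low, the difference was 2.28 (SE 0.20, limma with Benjamini-Hochberg adjustment over all tested genes, adjusted p = 0.0325). Between the female libraries the difference was 2.17, and between the male libraries 2.38. In the same fit 38 genes of 12486 were called, or 0.304%, of which 28 were higher and 10 lower.

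The ID4 call ended when either early anagen library was left out. Without the early female library the adjusted p was 0.0659 and without the early male library 0.199, although the log2 difference stayed at 2.46 and 2.09. It also ended with a pseudocount of 0.1 (adjusted p = 0.051) and without the filter on low values (adjusted p = 0.105). In the fits without an early library limma called 0 genes, and 2897 and 1445 genes had an unadjusted p under 0.05. The fibroblast marker sum of the mid female library was about 3 times that of the mid male library, whereas ID4 was at 11.3 and 10.03 in them. The part of the fibroblast genes in the ID4 difference was not tested.

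The genes whose pattern over the 4 libraries lay nearest to that of ID4 were OLFML3, CX3CL1, FZD1, RBP4 and ADGRL3. Nearness is the Euclidean distance between the 4 log2(value + 1) values after each gene's mean was subtracted, among all tested genes with a symbol. OLFML3, a secreted olfactomedin-like protein, was at a distance of 0.048, with 13.4 and 12.6 at mid anagen against 2.28 and 1.53 at early anagen. CX3CL1, the chemokine fractalkine, followed at 0.144, with 14.2 and 13.0 at mid anagen against 2.21 and 1.35 at early anagen. FZD1, a WNT receptor, was at 0.176, with 14.0 and 10.6 at mid anagen against 2.27 and 1.32 at early anagen. RBP4, a retinol carrier, was at 0.237 and ADGRL3, an adhesion G protein-coupled receptor, at 0.239. With 4 libraries, such likeness is a description of these libraries.

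The other 3 ID genes did not pass. ID1 (GeneID 102182889) was at 249 in the female and 216 in the male mid anagen library, against 280 in the female and 168 in the male early anagen library. Both mid anagen values lay between the early anagen values, and the log2 difference was 0.096 (SE 0.28, limma adjusted p = 0.848). ID3 (GeneID 102185881) was at 354 and 432 at mid anagen, against 428 and 367 at early anagen. Its phases overlapped as well, with a difference of -0.019 (SE 0.21, adjusted p = 0.963). ID2 (GeneID 102189873) was at 47.8 and 68.5 at mid anagen, against 45.1 and 29.2 at early anagen. The phases of ID2 did not overlap, yet the difference of 0.64 (SE 0.28, adjusted p = 0.201) was made of 0.080 between the female and 1.20 between the male libraries. The direction of ID3 depended on the scaling. When the libraries were brought to a common total, the median of all tested genes moved by 0.31 to 0.32, ID3 was at 0.32, and relative to that median it was at 0.0031.

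The summed ID abundance overlapped between phases, at 662 and 726 in mid anagen against 754 and 565 in early anagen. ID3 and ID1 together made up most of it in every library. ID4 took 1.70% and 1.38% of the sum at mid anagen, against 0.229% and 0.197% at early anagen, so the 2 phases were apart although ID4 stayed the smallest of the 4. ID2 took 7.21% and 9.43% at mid anagen, against 5.98% and 5.16% at early anagen. The shares of ID1 and ID3 overlapped between phases. ID1 took 37.6% in the mid female and 37.1% in the early female library, against 29.7% in the mid male and 29.8% in the early male library. The share of ID1 was thus nearer between libraries of the same sex than between libraries of the same phase.

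**Figure D2:**
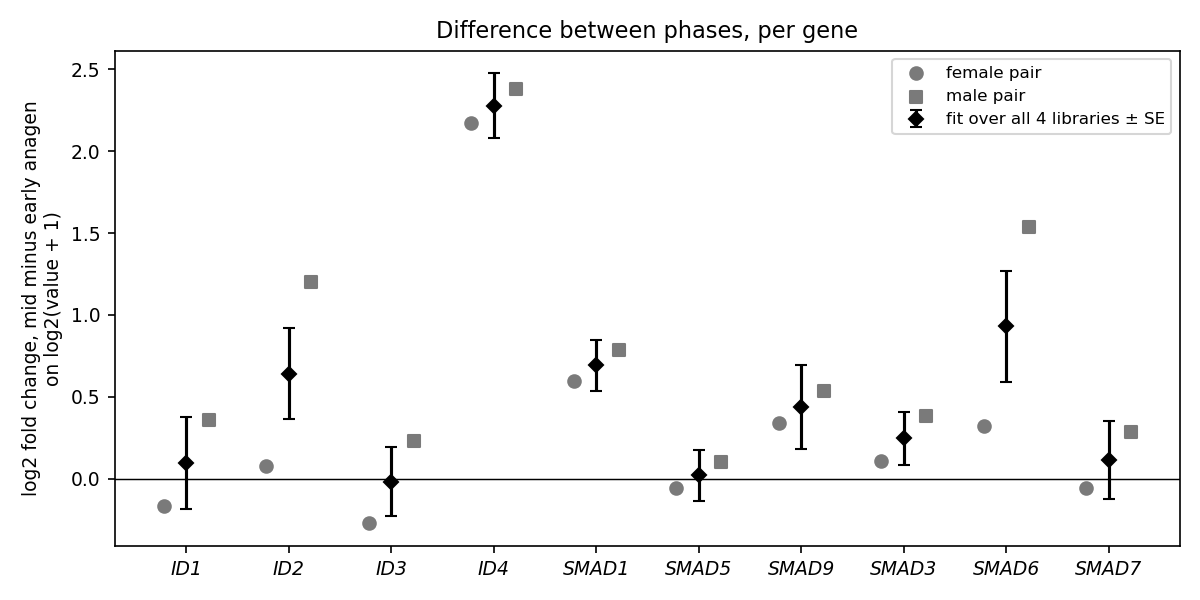
Difference between mid and early anagen for each gene on the log2(value + 1) scale, with the female pair (circle), the male pair (square) and the fit over 4 libraries with its standard error (diamond). ID4 stands at 2.28 and SMAD1 at 0.69 with both pairs close to the fit, whereas ID2 and SMAD6 differ more between the pairs, and ID1, ID3, SMAD5 and SMAD7 lie on opposite sides of 0 in the 2 pairs.

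Among the SMADs that carry the BMP signal, SMAD1 had the smallest p. SMAD1 (GeneID 102176988) was at 32.8 in the female and 31.3 in the male mid anagen library, against 21.3 and 17.7 in the early anagen libraries. All mid anagen values were above all early anagen values. The means were 32.0 ± 1.02 at mid anagen and 19.5 ± 2.55 at early anagen (SD, n = 2 each), with a log2 difference of 0.69 (SE 0.16, limma adjusted p = 0.0835) that did not pass. It passed after the libraries were brought to a common total, with a difference of 1.02 (adjusted p = 0.0469) that was 0.70 above the all-gene median, a setting that called 5.21% of all tested genes.

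SMAD5 (GeneID 102180667), the close relative of SMAD1 in the same branch, overlapped between the phases. It was at 23.1 and 21.7 at mid anagen, against 24.1 and 20.1 at early anagen, a log2 difference of 0.022 (SE 0.16, limma adjusted p = 0.941). SMAD9 (GeneID 102175489) was at 8.97 in the female and 6.62 in the male mid anagen library, against 6.87 and 4.27 in the early anagen libraries. The mid male value lay below the early female value, and the difference of 0.44 (SE 0.26, adjusted p = 0.316) did not pass. In both phases SMAD9 was lower in the male than in the female library.

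SMAD1 and SMAD5 stood in a different order in the 2 phases. The ratio of SMAD1 to SMAD5 within a library, which no rescaling of the library can alter, was 1.42 and 1.44 at mid anagen, against 0.885 and 0.881 at early anagen. The libraries of a phase differed in this ratio by far less than the phases did. The log2 ratio differed by 0.70 between mid and early anagen, by 0.68 to 0.71 when any 1 library was left out, and by 0.62 after removal of each library's trend over genomic span, the length a gene covers in the RefSeq table. Of the 45 pairs that the 10 genes form, 2 stood in one order in both mid anagen libraries and in the other in both early anagen libraries, namely SMAD1 with SMAD5 and ID4 with SMAD9. A ratio that did not overlap between the phases was common, with 28 of the 45 pairs. Of single tested genes 62.3% did not overlap. Pairs of all tested genes were not counted, so neither pair count can be read as particular to the 10 genes. With 2 libraries against 2, an exact permutation test of a ratio cannot give a two-sided p below 0.333, so the ratios are given without one.

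The sum of SMAD1, SMAD5 and SMAD9 was 64.8 and 59.6 at mid anagen, against 52.3 and 42.1 at early anagen. SMAD1 made up 50.5% and 52.5% of it at mid anagen, against 40.8% and 42.1% at early anagen. SMAD5 made up 35.6% and 36.4% at mid anagen, against 46.1% and 47.8% at early anagen. The share of SMAD9 overlapped between the phases, at 13.8% and 11.1% in mid anagen against 13.1% and 10.1% in early anagen.

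**Figure D3:**
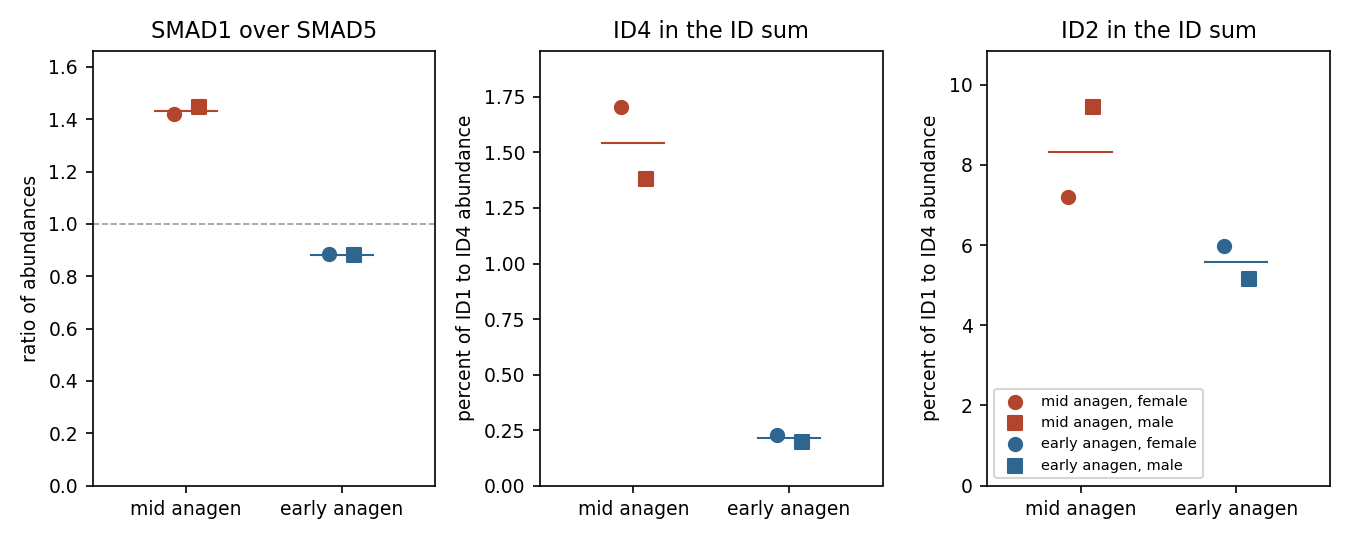
Within-library quantities by phase, namely the ratio of SMAD1 to SMAD5 (dashed line at equal levels), the ID4 share and the ID2 share of the summed ID abundance in percent, with circles for female and squares for male libraries and lines at the means. The ratio lies at 1.42 and 1.44 in mid anagen and at 0.885 and 0.881 in early anagen, on either side of equal levels.

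SMAD3 (GeneID 102169293), the TGF-beta and activin transducer, was at 33.3 and 33.0 at mid anagen, against 30.8 and 25.0 at early anagen. The phases did not overlap, and the log2 difference of 0.25 (SE 0.16, limma adjusted p = 0.356) did not pass. With the span trend removed it was 0.050. SMAD3 stood to the sum of SMAD1, SMAD5 and SMAD9 as 0.514 and 0.553 at mid anagen, against 0.589 and 0.595 at early anagen. The partner SMADs, named here outside the rule for named genes, were of similar level. SMAD4, the shared partner, was at 33.3 and 40.4 at mid anagen, against 28.8 and 30.1 at early anagen, and SMAD2, the other TGF-beta transducer, at 34.0 and 34.7 against 35.1 and 37.3. Neither passed the test.

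Of the inhibitory SMADs, SMAD7 was the more abundant. SMAD7 (GeneID 102190008) was at 21.8 in the female and 33.6 in the male mid anagen library, against 22.7 and 27.4 in the early anagen libraries. The mid anagen values enclosed the early ones, with a log2 difference of 0.11 (SE 0.24, limma adjusted p = 0.788). SMAD6 (GeneID 102169389) was at 2.62 and 3.56 at mid anagen, against 1.89 and 0.570 at early anagen. The phases of SMAD6 did not overlap, and the difference of 0.93 (SE 0.34, adjusted p = 0.156) did not pass. Between the female libraries it was 0.32 and between the male libraries 1.54, and it ranged from 0.38 with a pseudocount of 5 to 1.45 with a pseudocount of 0.1. Every SMAD6 value lies below 5, and the early male value lies below 1. SMAD7 exceeded SMAD6 by 8.33 and 9.44 times at mid anagen, against 12.0 and 48.0 times at early anagen.

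Over the 10 genes, 1 was called higher, 0 were called lower and 9 did not pass. At an unadjusted p under 0.05 there were 3, namely ID4, SMAD1 and SMAD6, while 27.9% of all tested genes reached that level. ID2, ID4, SMAD1, SMAD3 and SMAD6 were higher at mid anagen without overlap between the phases, and none of the 10 was lower without overlap. Of all tested genes, 31.5% were higher and 30.9% lower without overlap, together 62.3%, so 5 of 10 in either direction was no more than among all tested genes. The median log2 difference of the 10 was 0.34, against 0.011 over all tested genes, with 0.096 between the female and 0.46 between the male libraries. Without the early female library it was 0.59 and without the early male library 0.20.

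The early male library held the lowest value of 8 of the 10 genes, all but ID3 and SMAD7, and the highest of none. Among all tested genes it held the lowest value of 32.1% and the highest of 34.1%. With the libraries brought to a common total, it held the lowest value of 9 of the 10 and of 56.5% of all tested genes. The part of this library in the differences was not tested beyond leaving it out. Without it ID1 was at -0.27, ID2 at 0.34, SMAD1 at 0.57, SMAD6 at 0.49 and SMAD9 at 0.15 on the log2 scale, and ID4 at 2.09.

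Male and female libraries were compared in a limma fit with phase and sex as terms. None of the 10 genes passed, and 2 had an unadjusted p under 0.05, a level that 11% of all tested genes reached. In all 18 of 12486 tested genes, or 0.144%, were called. SMAD7 was higher in the male libraries, at 33.6 and 27.4 in the mid and early male against 21.8 and 22.7 in the mid and early female, a log2 difference of 0.43 (SE 0.16, limma adjusted p = 0.403). SMAD9 was lower in the male libraries, at 6.62 and 4.27 in mid and early male against 8.97 and 6.87 in mid and early female, a difference of -0.48 (SE 0.16, adjusted p = 0.342). For SMAD7 the sexes were further apart than the phases, as they were for ID1, ID3, SMAD5 and SMAD9, although none of these differences passed. ID1 and SMAD5 were likewise lower in both male libraries than in both female libraries, so that the sexes did not overlap for 4 of the 10 genes. The same held for 24.2% of all tested genes.

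**Figure D4:**
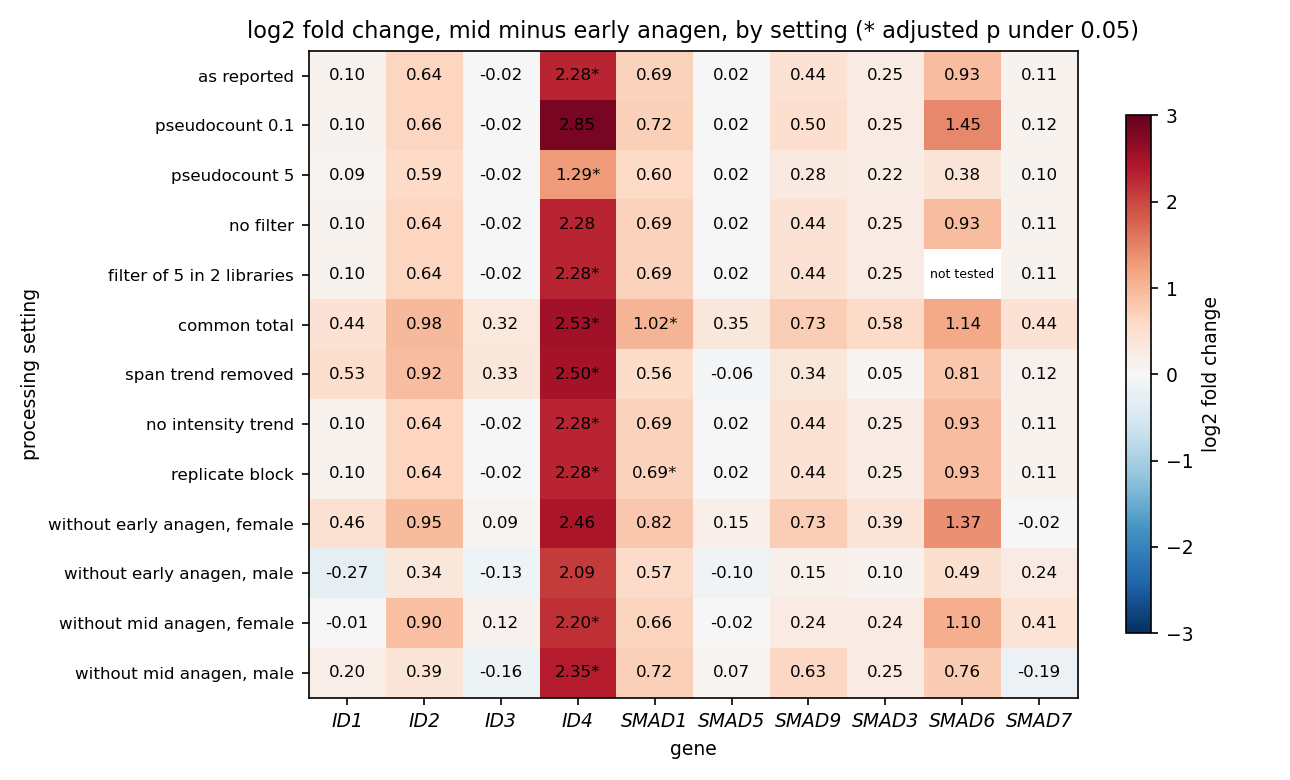
Log2 difference between mid and early anagen of each gene (columns) under each processing setting (rows), with an asterisk where the adjusted p was under 0.05. ID4 is positive in every row, from 1.29 with a pseudocount of 5 to 2.85 with a pseudocount of 0.1, whereas ID1, ID3, SMAD5 and SMAD7 change sign between rows. In the row with the filter of 5, the direction of ID4 was fixed by the filter.

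Genes around the 10 in the pathway were taken from lists of ligands, receptors, antagonists, SMAD regulators, targets and partners of ID proteins. Their counts at an unadjusted p under 0.05 stand against 27.9% of all tested genes, and their medians against 0.011. Some lists share genes, among them ENG, SKIL and CDKN2B, so the counts and medians of the lists are not independent. Of 15 genes listed as BMP ligands, a list that includes GDF family members, 5 could be tested and none was called by limma. GDF15 and BMP7 were the 2 at an unadjusted p under 0.05. Whether each listed ligand acts through the SMADs followed here was not tested. GDF15, a stress-induced family member, was at 81.8 and 45.5 at mid anagen, against 33.2 and 15.5 at early anagen. BMP7 was at 4.81 and 5.48, against 1.76 and 3.68, and BMP2 at 14.8 and 14.6, against 8.55 and 14.0. GDF11 was at 2.74 and 3.98, against 2.57 and 2.46. The list's median log2 difference was 0.40. It was 0.72 without the early male library, 0.14 without the filter and 0.89 with a filter of 5. BMP7 and GDF11 did not pass the filter of 5, so that median covers fewer genes and does not compare like with like.

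Of 17 receptors and co-receptors 16 were found and 13 tested. None was called, 6 had an unadjusted p under 0.05, and the median was 0.50. The median was 0.32 without the early male library and ran from 0.26 with a pseudocount of 5 to 0.75 with a common total. The BMP type I receptor ACVR1 was at 33.0 and 26.1 at mid anagen, against 18.1 and 14.6 at early anagen. The type II receptor BMPR2 was at 23.7 and 20.9, against 14.9 and 10.2, and the type I receptor BMPR1B at 3.19 and 3.20, against 2.10 and 1.66. The co-receptor ENG was at 4.01 and 1.87 at mid anagen, against 0.362 and 0.399 at early anagen, and passed the filter on low values through the mid anagen libraries alone. The direction of ENG and its part in the count and median of this list were thus fixed by the filter.

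Of 20 extracellular antagonists and modulators 17 were found and 9 tested, with 1 called higher, 0 called lower and a median of 0.48, which ran from 0.20 without the filter to 0.81 with a common total. FSTL1, a secreted follistatin-like protein, rose, with 21.7 and 31.1 at mid anagen against 2.25 and 4.03 at early anagen, a log2 difference of 2.74 (SE 0.28, limma adjusted p = 0.0431). Its call ended without the early female (adjusted p = 0.0722) or the early male library (adjusted p = 0.197). It also ended with the span trend removed, without the intensity trend of the fit, with a pseudocount of 0.1 and without the filter (adjusted p = 0.0502 to 0.105). The BMP antagonist GREM1 was at 3.12 and 2.78, against 0.649 and 0.802, and CHRD, chordin, at 1.51 and 6.38, against 0.477 and 0.468. Both passed the filter through the mid anagen libraries alone, so their directions and their part in the list's median were fixed by the filter. CRIM1, a BMP-binding membrane protein, was at 34.7 and 37.6, against 26.4 and 25.0. NOG, noggin, was below the filter, at 0.43 and 0.22 at mid anagen, against 0 and 0.021 at early anagen.

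Of 10 TGF-beta and activin ligands 8 were found and 6 tested. None was called and 6 had an unadjusted p under 0.05. The median of 0.89 ran from 0.44 with a pseudocount of 5 to 1.75 with a filter of 5 over the alternatives. TGFB2 was at 5.44 and 12.2 at mid anagen, against 1.20 and 0.143 at early anagen, and TGFB3 at 2.71 and 2.01, against 0.981 and 0.649. TGFB3 passed the filter through the mid anagen libraries alone, so its direction and its part in that count and median were fixed by the filter. The activin subunit INHBA was at 3.57 and 4.00, against 1.17 and 2.07, and INHBB at 28.6 and 29.9, against 16.2 and 3.68. TGFB3 and INHBA did not pass the filter of 5, and the median of 1.75 under it was the value of INHBB. TGFB2 passed the filter of 5 through the mid anagen libraries alone, so its direction and its part in the median of 1.75 were fixed by that filter.

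**Figure D5:**
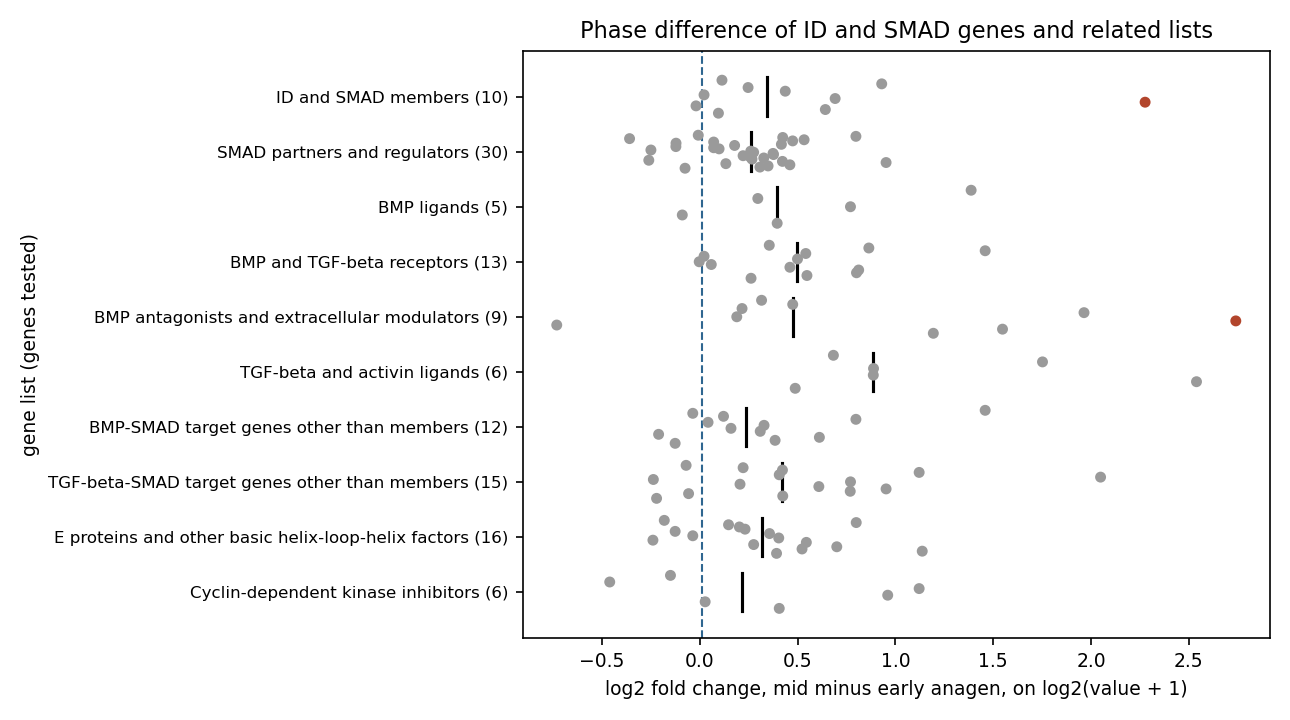
Log2 difference between mid and early anagen (x axis) of the tested genes of each list (rows, number tested in brackets), with called genes in red, list medians as black bars and the median of all tested genes as a dashed line. ID4 and FSTL1 are the called genes, and the list medians run from 0.22 to 0.89, to the right of the all-gene median of 0.011.

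Targets and regulators of SMADs held no called gene. Of 35 SMAD partners and regulators 30 were tested, 6 had an unadjusted p under 0.05, and the median was 0.26, or 0.11 with the span trend removed and 0.59 with a common total. SKIL, a repressor of SMAD activity that TGF-beta induces, was at 9.78 and 8.89 at mid anagen, against 4.31 and 4.36 at early anagen. The coactivators EP300 and CREBBP were at 27.1 and 30.5, against 21.0 and 18.1, and at 15.0 and 17.2, against 11.9 and 10.7. CTDSP2, a SMAD phosphatase, was at 48.2 and 56.2, against 38.4 and 39.0.

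Of 18 BMP-SMAD targets outside the 10 genes 12 were tested, and 2 had an unadjusted p under 0.05. The median was 0.23, or 0.13 without the early male library and 0.55 with a common total. Between the female libraries the median was -0.0051 and between the male libraries 0.31, against 0.017 and 0.0063 over all tested genes. ENG is 1 of those 2 and passed the filter through the mid anagen libraries alone. Its direction and its part in that count and median were thus fixed by the filter. After ENG, the smallest p-values belonged to MSX2 at 4.60 and 4.63 in mid anagen against 3.49 and 2.00 in early anagen, and to DLX3 at 17.4 and 17.9 against 14.4 and 13.6. GATA3 was at 18.6 and 19.7, against 16.4 and 13.8. These are transcription factors of the epidermis and hair. Of 18 TGF-beta-SMAD targets 16 were found and 15 tested, 7 had an unadjusted p under 0.05, and the median was 0.42, or 0.76 with a common total. ITGB6, an integrin subunit that activates latent TGF-beta, was at 118 and 93.9 at mid anagen, against 32.5 and 18.7 at early anagen. TGFBI, a secreted adhesion protein, was at 128 and 135, against 61.8 and 94.9, and the cyclin-dependent kinase inhibitor CDKN2B at 25.9 and 37.8, against 19.6 and 9.69.

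Among 30 E proteins and other basic helix-loop-helix factors, the class of protein that ID proteins bind or resemble, 16 were tested, none was called, 4 had an unadjusted p under 0.05, and the median was 0.32. The median was 0.20 without the mid male library and 0.65 with a common total. The E protein TCF4 was at 6.19 and 6.15 at mid anagen, against 2.27 and 2.25 at early anagen, without overlap and close within each phase. TCF12 was at 34.3 and 30.5, against 22.9 and 21.6, and TCF3 at 14.2 and 16.4, against 12.0 and 10.8. TFEB, a lysosomal gene regulator of the wider class, was at 6.52 and 7.19, against 4.19 and 2.91. All 3 E proteins were higher at mid anagen without overlap, as were 8 of the 16 tested genes of the list and 31.5% of all tested genes, while 1 of the list was lower without overlap and 7 overlapped.

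Of 7 cyclin-dependent kinase inhibitors 6 were found and tested, none was called, 3 had an unadjusted p under 0.05, and the median was 0.22, or 0.55 with a common total. CDKN1C was at 5.64 and 5.97 at mid anagen, against 2.60 and 2.39 at early anagen. CDKN2C was at 11.7 and 13.1, against 18.7 and 16.2, the reverse direction, and CDKN1A at 232 and 240, against 158 and 200. Over all these lists the medians moved up by 0.22 to 0.34 when the libraries were brought to a common total, where the all-gene median moved by 0.31.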

How the data were processed

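The 4 RNA libraries were used, with groups, sexes and replicate numbers taken from the titles. The deposited values are a signal, an abundance per gene whose unit is not named and which was taken as corrected for length. Tools named in the submitters' processing notes are kallisto 0.46.1 and sleuth 0.30.0. Genome build, annotation and the summing of transcripts to genes are not stated in the sources used here, so no coordinates are printed. The totals differ between libraries, so the values appear to be rescaled TPM. A search of low values for the step of 1 read gave no common step (fullest bin 2.70% to 13.4% of ratios), so whole reads were not recovered and depth is unknown. No pair of libraries shared an equal value above 0.

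The tests used limma 3.58.1 (R 4.3.3) with an intensity trend on log2(value + 1). They covered the 12486 genes that reached 1 in 2 or more libraries, and p-values were adjusted by Benjamini-Hochberg with a threshold of 0.05. Phase was the only term, and sex was tested with phase. P-values rest on the spread between the 2 libraries per phase, which the labels call biological replicates. These are a female and a male library, so in the fit of phase alone the spread includes any difference between the sexes. The limma fit also draws on the spread of other genes. Gene spans came from the RefSeq table of the ARS1.2 assembly, which held 20294 of the identifiers. The genes, lists and tests were chosen with earlier results of these data known. From each list the called genes or the 4 with the smallest p are named, and for a called member the 5 nearest genes. Promoter and protein sequences were not used here. No interaction of phase with sex was tested, since the 4 libraries would leave no spread to test it against.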

Additional observations from a re-analysis of the deposited data

Results flagged for a closer look

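For 4 of the 10 genes the female pair and the male pair lay in opposite directions between mid and early anagen, with 1 library on each side of each pair, so the difference between pairs was not tested. ID1 differed by -0.17 on the log2 scale in the female pair and by 0.36 in the male pair. ID3 differed by -0.27 in the female pair and by 0.23 in the male pair. SMAD5 differed by -0.058 and 0.10, and SMAD7 by -0.056 and 0.28, in the female and male pairs.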

How the results depend on the processing

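Of 12 alternatives for the comparison of phases, 8 kept ID4 called, and its log2 difference stayed positive in all 12. Among them, ID4 passed the filter of 5 through the mid anagen libraries alone, so its direction under that setting was fixed by the filter. The limma call of ID4 ended with a pseudocount of 0.1 (18 genes called, 13 higher and 5 lower, ID4 adjusted p = 0.051), without the filter (0 genes called in either direction and 0 of the 10, 3843 at an unadjusted p under 0.05, ID4 adjusted p = 0.105) and without either early anagen library. Leaving out 1 library gave 0 to 733 called genes, 0 to 331 higher and 0 to 402 lower, and 0 to 1 of the 10. Where a phase keeps 1 library, that library is assumed to vary like the other phase. A filter of 5 called 19 genes lower. A common total called 651 genes, or 5.21% of all tested genes, 568 higher and 83 lower, and 2 of the 10, ID4 and SMAD1. The replicate block, where the number is also the sex, called 1782 genes, or 14.3% of all tested genes, 917 higher and 865 lower. It called the same 2 of the 10, SMAD1 at an unchanged 0.69 (limma adjusted p = 0.035). Same-numbered libraries deviated from their phase means with r = 0.292 across genes, and nothing in the labels ties them to shared animals.

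Directions that turned belong to genes near 0. ID3 was at 0.32 with a common total and 0.33 with the span trend removed, and SMAD5 at -0.061 with the span trend removed. Leaving out 1 library gave -0.27 to 0.46 for ID1, -0.16 to 0.12 for ID3, -0.10 to 0.15 for SMAD5 and -0.19 to 0.41 for SMAD7. With the span trend removed ID1 was at 0.53 without passing. The ID genes span 1152 to 3406 bases and the SMAD genes 28896 to 127108 bases, and the cause of these shifts was not tested.

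For male against female, limma called 46 genes with a pseudocount of 0.1, 48 with one of 5, 0 without the filter (1504 at an unadjusted p under 0.05), 101 with a filter of 5, 397 with a common total, 9 with the span trend removed, 9 without the intensity trend and 1 with sex alone. None of the 10 genes was called in any of these. Read depth is unknown, so the precision of the low values of ID4 and SMAD6 cannot be stated.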
